A study of Mus musculus with 6 samples.

Results

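The replication machinery is the set of proteins that open, unwind and copy DNA in S phase. It is described here by 44 genes, chosen as a fixed list of gene symbols and grouped by step: origin licensing (10 genes), the replicative helicase (12), the polymerases (8), the sliding clamp with its loader and lagging-strand enzymes (8), single-strand binding (3) and nucleotide supply (3). All 44 were found among the 25955 entries of the deposited table, each under 1 entry. The rule is the list of symbols and uses no measured value, though the list was drawn up with earlier results of these data known. RNA was sequenced in bulk from 2 sorted populations of mouse bone marrow cells, 3 libraries of CD51+ TNCs and 3 of CD44+CD51- TNCs, numbered 1 to 3 in each group. Both groups came from enzymatically digested marrow of C57BL/6 mice with no treatment or allele named in the labels, and cells were sorted into lysis buffer. CD51, the product of Itgav, is the integrin chain αV, and CD44 binds hyaluronan at the cell surface. TNC is not spelled out in the labels; marrow studies use it for cells lacking markers of mature blood and endothelial cells, and the series title speaks of stromal and haematopoietic TNCs. The age and sex of the animals, and whether each library came from 1 animal or from a pool, are not given in the sources used here. Each p below therefore tests the group difference against the spread between these samples, and that spread may be technical.

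Before a chromosome can be copied, the origin recognition complex, Cdc6 and Cdt1 load rings of the MCM proteins onto DNA in G1 phase, which licenses the origin. In S phase the kinase that Dbf4 activates, together with Mcm10, Cdc45 and the GINS complex, turns each ring into a running helicase. Primase with DNA polymerase α starts the strands, and polymerases ε and δ extend them on the clamp PCNA, while RPA covers bare strands and ribonucleotide reductase makes the building blocks. Many of these genes are classical targets of the E2F transcription factors, and in marrow they are most active in dividing progenitors.

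Levels are RPKM, reads per kilobase of gene length relative to library size, as the authors gave it. Values are listed in the order of libraries 1, 2 and 3 of a group. A log2 change is the mean log2(RPKM + 1) of CD51+ libraries minus that of CD44+CD51- libraries, with p-values from limma adjusted by Benjamini-Hochberg over the 11741 genes tested, and a gene is said to have fallen or risen where the adjusted p was under 0.05. The library size behind the RPKM, estimated from the steps between low values, was 12194782 to 32486734 reads in CD51+ libraries and 19292572 to 25584190 reads in CD44+CD51- libraries. At these sizes the lowest value of any replication gene, that of Orc1 in CD51+ library 1, stood for about 185 reads. Of the genes of the sorting antigens, Itgav had 5.37, 9.81 and 5.86 RPKM in the CD51+ libraries, against 0.564, 0.957 and 0.510 RPKM in the CD44+CD51- libraries. Cd44 averaged 31.5 ± 2.98 RPKM in CD51+ cells and 34.8 ± 2.57 RPKM in CD44+CD51- cells (SD, n = 3 each), with overlapping groups (adjusted p = 0.401). Ptprc, which encodes the blood cell antigen CD45, averaged 6.87 ± 0.643 RPKM in CD51+ cells and 3.25 ± 1.28 RPKM in CD44+CD51- cells and was called higher in CD51+ cells (adjusted p = 0.0122). In a principal component analysis of all genes tested, the groups separated on component 1 (84.6% of the variance). On component 2 (9.97%) both libraries numbered 1 lay on one side and the remaining 4 on the other. CD44+CD51- library 2 held the most stromal, neutrophil and macrophage transcripts of its group.

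All 44 replication genes had lower mean RPKM in CD51+ cells than in CD44+CD51- cells. The log2 change was negative for all 44, and for 7148 of the 11741 genes tested. Of the 44 genes, 36 fell. That is 81.8% of the list, where 29.7% of all genes tested were called lower. None rose, by limma or in any of 15 alternative settings, where 24.1% of all genes tested were called higher; at an unadjusted p under 0.05, 41 were lower and 0 higher. Log2 changes ran from -1.38 for Pold2 to -0.41 for Rpa3, with a median of -0.97, where the median over all genes tested was -0.23. As ratios of mean RPKM, the genes were 1.28 to 2.72-fold lower in CD51+ cells, with a median of 1.97-fold, and 20 of 44 were more than 2-fold lower. In 40 of 44 genes every CD51+ library lay below every CD44+CD51- library, which was so of 37.5% of all genes tested. Pole2, Pcna, Rpa3 and Rrm2 were the 4 whose groups overlapped. These are bulk samples, so fewer replicating cells in a population and less of these transcripts in each cell cannot be told apart.

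The fall took in every step of replication. Of the licensing genes 8 of 10 fell, with a median log2 change of -0.98; of the helicase genes 11 of 12 fell, with a median of -1.07. Among the polymerase genes 7 of 8 fell (median -1.06), and among the clamp, loader and lagging-strand genes 6 of 8 fell (median -0.87). Of the RPA genes 2 of 3 fell (median -0.88), and of the nucleotide supply genes 2 of 3 fell (median -0.72). The licensing count was 5 under trimmed-mean scaling, without CD44+CD51- replicate 2 and without CD44+CD51- replicate 3. The nucleotide supply count was 1 without CD51+ replicate 2, CD44+CD51- replicate 2 or CD44+CD51- replicate 3.

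**Figure D1:**
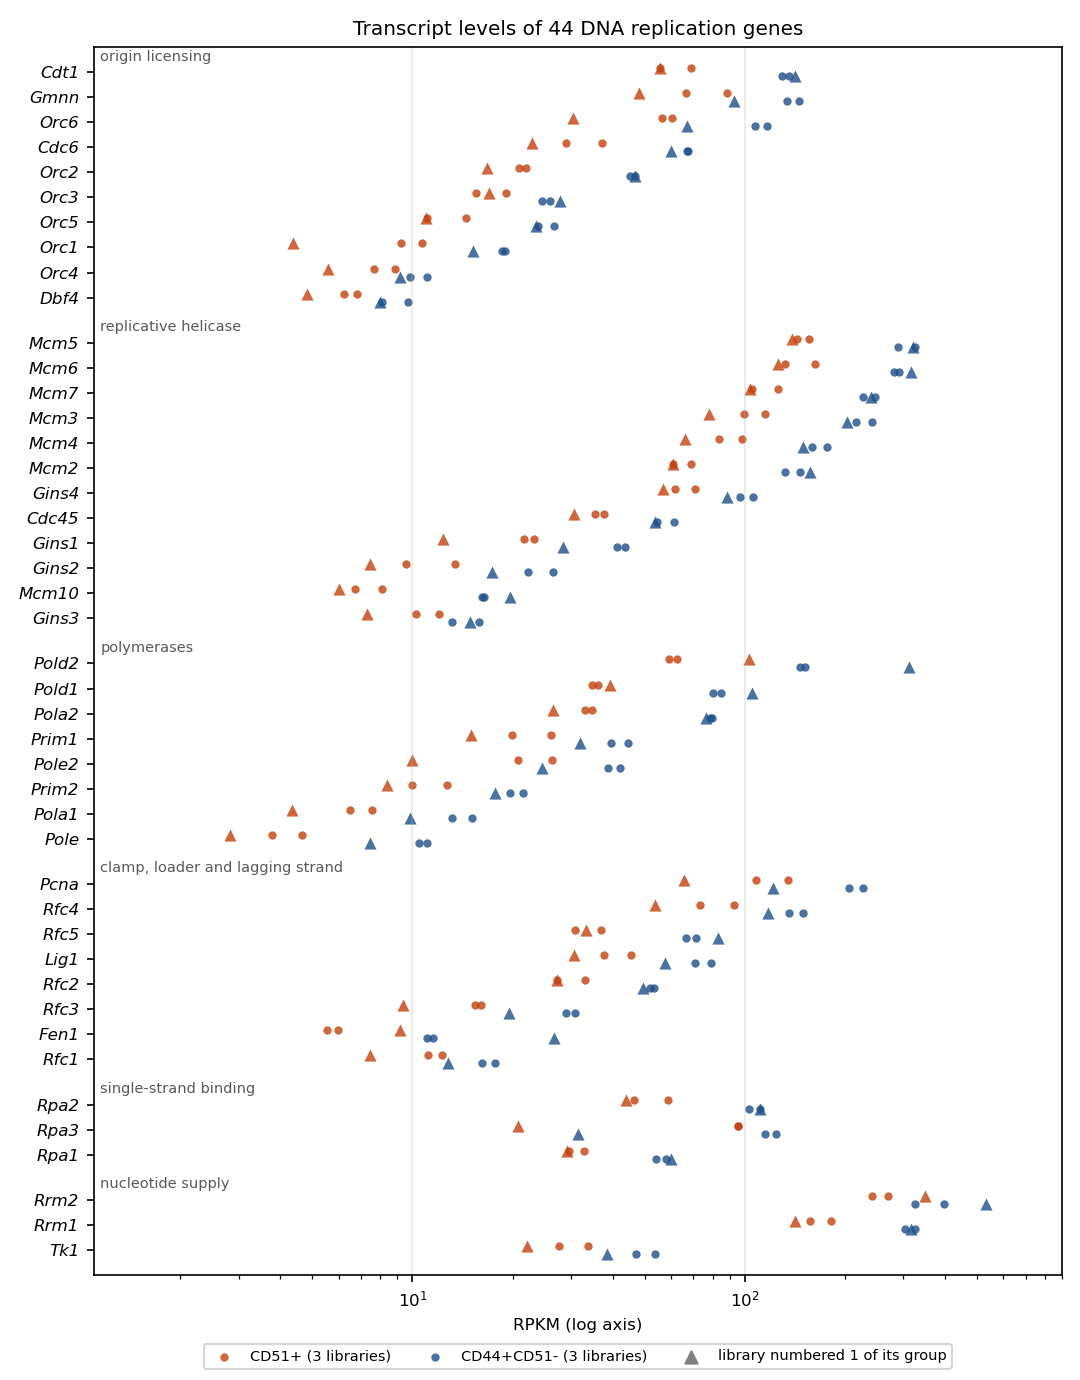
RPKM (log axis) of the 44 replication genes in each library, by step; CD51+ libraries are drawn above CD44+CD51- libraries of the same gene, and triangles are the libraries numbered 1. The CD51+ points lie to the left of all CD44+CD51- points in 40 of 44 genes, and Pole2, Pcna, Rpa3 and Rrm2 are the genes whose points overlap.

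The stretch just before the start of a gene is where E2F factors are known to bind, so these stretches are shown for 7 genes. They are 180 bases long, end at the base before the RefSeq start and come from the RefSeq promoter table for GRCm38.p6; they run 5′ to 3′ on the strand of the gene. Capitals mark the letters of an E2F motif (TTTCCCGC, TTTGGCGC, TTTCGCGC or TTTGCCGC, or their reverse complements) and of a CCAAT box (CCAAT or ATTGG), the element of the factor NF-Y. Orc1, Cdc6, Mcm5, Mcm6, Mcm7 and Pola1 hold E2F letters, with a pair of overlapping matches in Mcm5 and in Mcm6, and Mcm2 is shown as a gene with none. No E2F match overlaps a CCAAT match in them. The RefSeq starts of Orc1, Cdc6 and Mcm7 lie inside the genes as GENCODE M21 places them, so that the stretches of Cdc6 and Mcm7 are wholly inside and that of Orc1 is so in part.
Orc1 (chr4:108579274-108579453, plus strand): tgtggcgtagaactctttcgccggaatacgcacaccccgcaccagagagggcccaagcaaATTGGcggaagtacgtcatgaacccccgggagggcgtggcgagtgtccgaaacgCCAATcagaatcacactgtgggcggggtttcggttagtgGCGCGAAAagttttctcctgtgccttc
Cdc6 (chr11:98907971-98908150, plus strand): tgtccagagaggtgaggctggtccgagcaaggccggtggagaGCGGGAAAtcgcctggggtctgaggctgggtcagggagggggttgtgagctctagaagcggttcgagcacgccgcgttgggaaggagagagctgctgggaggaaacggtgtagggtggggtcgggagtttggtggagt
Mcm5 (chr8:75109329-75109508, plus strand): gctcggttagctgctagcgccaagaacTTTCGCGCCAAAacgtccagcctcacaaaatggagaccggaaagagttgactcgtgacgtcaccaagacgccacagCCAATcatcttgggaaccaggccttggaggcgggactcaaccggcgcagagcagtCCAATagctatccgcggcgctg
Mcm6 (chr1:128359706-128359885, minus strand): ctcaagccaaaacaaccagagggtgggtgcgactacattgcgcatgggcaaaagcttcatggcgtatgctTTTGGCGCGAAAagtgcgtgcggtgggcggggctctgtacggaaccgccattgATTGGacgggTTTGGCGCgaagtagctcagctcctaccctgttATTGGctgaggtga
Mcm7 (chr5:138171884-138172063, minus strand): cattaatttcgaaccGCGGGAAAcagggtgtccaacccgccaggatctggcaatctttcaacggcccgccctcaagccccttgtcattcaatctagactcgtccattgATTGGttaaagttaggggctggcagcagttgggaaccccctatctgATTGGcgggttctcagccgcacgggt
Pola1 (chrX:93632156-93632335, minus strand): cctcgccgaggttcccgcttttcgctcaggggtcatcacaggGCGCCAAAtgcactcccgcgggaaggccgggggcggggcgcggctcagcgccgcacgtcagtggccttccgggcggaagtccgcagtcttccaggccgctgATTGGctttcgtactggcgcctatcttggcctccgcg
Mcm2 (chr6:88898781-88898960, minus strand): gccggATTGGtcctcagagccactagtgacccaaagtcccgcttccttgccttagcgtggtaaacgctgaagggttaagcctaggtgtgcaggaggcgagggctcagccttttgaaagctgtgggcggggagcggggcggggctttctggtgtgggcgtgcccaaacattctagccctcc

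RefSeq windows of 250 bases before to 50 after a start were held for 36 of the 44 genes, 44 windows in all since 6 genes have more than 1 start. A gene was counted where any of its windows matched. E2F letters were found in this way for 14 of the 36 genes, or 38.9%, where they were found for 2.6% of 27025 genes with a window and for 4.73% of the 8641 of them tested here. The 14 genes were Orc1, Orc3, Cdc6, Cdt1, Mcm3, Mcm5, Mcm6, Mcm7, Gins3, Pola1, Pold1, Pole2, Lig1 and Rfc3. In Cdt1, Mcm3, Pold1, Pole2 and Lig1 the E2F letters lay only in the 50 bases after the start. CCAAT letters were found for 23 of the 36 genes, or 63.9%, against 41.1% of all genes with a window and 43.0% of those tested. Genes with E2F letters had a median log2 change of -1.08, with a range from -1.26 to -0.55 (n = 14). Those without had a median of -0.94, with a range from -1.38 to -0.41 (n = 22), so the ranges overlapped. A match of letters is no measurement of binding, and base composition of the windows was not matched.

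Licensing opens with the origin recognition complex. Orc2 (chromosome 1, 58462771 to 58505109, minus strand), a core subunit, had 16.8, 20.9 and 21.9 RPKM in the CD51+ libraries, against 46.7, 45.3 and 46.6 RPKM in the CD44+CD51- libraries. The 3 CD51+ libraries lay far below the other 3, which were almost level with each other. On the log2 scale it changed by -1.18 ± 0.14 (SE, adjusted p = 0.000704), the largest of the licensing genes. Orc1 (chromosome 4, 108579423 to 108614833, plus strand), the subunit that human cells degrade as S phase proceeds, had 4.36, 9.26 and 10.6 RPKM in the CD51+ libraries, against 15.2, 18.9 and 18.6 RPKM in the CD44+CD51- libraries. CD51+ library 1 was the lowest of all 6, and the groups did not overlap. For Orc1 the log2 change was -1.10 ± 0.30 (SE, adjusted p = 0.0184), and the adjusted p was 0.0521 without CD44+CD51- replicate 2 and 0.0589 without replicate 3, in a range of 0.0012 to 0.0589 over the 15 alternatives.

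Cdc6 and Cdt1 bring the MCM rings to the origin complex. Cdt1 (chromosome 8, 122568015 to 122573554, plus strand) had 55.4, 55.6 and 68.9 RPKM in the CD51+ libraries, against 142, 136 and 129.6 RPKM in the CD44+CD51- libraries, with no overlap and a tight CD44+CD51- group. This came to a log2 change of -1.17 ± 0.15 (SE, adjusted p = 0.000811). Cdc6 (chromosome 11, 98907801 to 98923940, plus strand) had 22.8, 28.9 and 37.1 RPKM in the CD51+ libraries, against 60.1, 67.6 and 66.8 RPKM in the CD44+CD51- libraries, again with all CD51+ libraries lower. Cdc6 had a log2 change of -1.13 ± 0.19 (SE, adjusted p = 0.00286). Gmnn (chromosome 13, 24751845 to 24761923, minus strand) encodes geminin, the inhibitor that holds Cdt1 once S phase has begun, and its transcript fell as that of Cdt1 did. It had 48.1, 66.3 and 88.6 RPKM in the CD51+ libraries, against 92.5, 146 and 134 RPKM in the CD44+CD51- libraries, in which the highest CD51+ library stood just under the lowest CD44+CD51- library. The log2 change was -0.88 ± 0.27 (SE, adjusted p = 0.0295), a call lost in 7 of the 15 alternatives, over which the adjusted p ran from 0.00123 to 0.0914.

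Of the other licensing genes Orc5 had 10.97, 11.1 and 14.5 RPKM in the CD51+ libraries, against 23.5, 23.9 and 26.6 RPKM in the CD44+CD51- libraries, with a log2 change of -0.97 ± 0.15 (SE, adjusted p = 0.0022), with CD51+ libraries 1 and 2 level with each other. Orc3, a subunit that joins Orc2 in the core, had the smallest log2 change of the 36 genes called, with 16.95, 15.6 and 19.1 RPKM in the CD51+ libraries, against 27.7, 24.5 and 25.99 RPKM in the CD44+CD51- libraries. That is a log2 change of -0.57 ± 0.14 (SE, adjusted p = 0.0112), with an adjusted p of 0.0789 under trimmed-mean scaling, in a range of 0.00173 to 0.0789. Orc6, the subunit that joins the others most loosely, had 30.4, 56.5 and 60.5 RPKM in the CD51+ libraries, against 67.01, 117 and 107 RPKM in the CD44+CD51- libraries, where library 1 was the lowest of each group. The log2 change of Orc6 was -0.99 ± 0.32 (SE, adjusted p = 0.0361), a call lost in 7 of the 15 alternatives (adjusted p 0.000409 to 0.106).

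A pair of licensing and firing genes did not pass the test. Orc4 had 5.57, 7.67 and 8.84 RPKM in the CD51+ libraries, against 9.18, 11.1 and 9.82 RPKM in the CD44+CD51- libraries, with no overlap but a gap smaller than the spread within the CD51+ group. The change was, in log2, -0.41 ± 0.19 (SE, adjusted p = 0.101), and with the replicate number as a block the adjusted p was 0.0332. Orc4 was called in 3 of the 15 alternatives (adjusted p 0.0101 to 0.278). Dbf4, the activating subunit of the Cdc7 kinase that fires origins, had 4.81, 6.24 and 6.82 RPKM in the CD51+ libraries, against 7.99, 9.69 and 8.09 RPKM in the CD44+CD51- libraries, and here too no value overlapped. For Dbf4 the log2 change was -0.47 ± 0.17 (SE, adjusted p = 0.052), or an adjusted p of 0.0189 with the block. Dbf4 was called in 5 of the 15 alternatives (adjusted p 0.00444 to 0.155).

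The 6 MCM genes, whose products form the hexameric ring of the helicase, moved nearly in step. Mcm2 (chromosome 6, 88883474 to 88898780, minus strand) had 60.8, 60.6 and 68.7 RPKM in the CD51+ libraries, against 157, 147 and 132 RPKM in the CD44+CD51- libraries. The CD51+ values lay close together and far below every CD44+CD51- library. Its log2 change was -1.18 ± 0.14 (SE, adjusted p = 0.000656). Mcm3 (chromosome 1, 20802968 to 20820312, minus strand) had 77.7, 99.4 and 115 RPKM in the CD51+ libraries, against 203, 242 and 216 RPKM in the CD44+CD51- libraries, with library 1 lowest in both groups. Mcm3 had a log2 change of -1.18 ± 0.19 (SE, adjusted p = 0.00218). Mcm5, among the highest of the ring genes, had 138, 144 and 156 RPKM in the CD51+ libraries, against 321, 325 and 289 RPKM in the CD44+CD51- libraries, and its log2 change was -1.09 ± 0.15 (SE, adjusted p = 0.0012). Mcm6 had 126, 132 and 162 RPKM in the CD51+ libraries, against 316, 290.2 and 281 RPKM in the CD44+CD51- libraries, and its log2 change was -1.08 ± 0.17 (SE, adjusted p = 0.00187). In both of them the groups stood well apart. Mcm7 had 104, 105 and 126 RPKM in the CD51+ libraries, against 239.5, 246 and 226 RPKM in the CD44+CD51- libraries, with a log2 change of -1.09 ± 0.15 (SE, adjusted p = 0.00127). Mcm4 had 65.9, 83.4 and 97.8 RPKM in the CD51+ libraries, against 149.7, 176 and 159.8 RPKM in the CD44+CD51- libraries, with a log2 change of -0.98 ± 0.18 (SE, adjusted p = 0.00417). All 6 ring genes passed the test in all 15 alternatives, and their log2 changes lay between -0.98 and -1.18.

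Mcm10 (chromosome 2, 4989714 to 5012791, minus strand), which binds the loaded ring and is needed for it to start unwinding, changed most among the helicase genes. It had 5.99, 6.72 and 8.08 RPKM in the CD51+ libraries, against 19.6, 16.4 and 16.2 RPKM in the CD44+CD51- libraries, and every CD51+ library was far below the lowest CD44+CD51- library. The log2 change was -1.22 ± 0.16 (SE, adjusted p = 0.00103). Cdc45, which joins MCM and GINS in the running helicase, had 30.6, 35.5 and 37.6 RPKM in the CD51+ libraries, against 53.7, 61.1 and 54.5 RPKM in the CD44+CD51- libraries, a smaller gap but with no overlap. On the log2 scale it changed by -0.69 ± 0.14 (SE, adjusted p = 0.00562).

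The 4 GINS genes, which encode the other cofactor of the helicase, were less alike. Gins2 had 7.44, 9.56 and 13.4 RPKM in the CD51+ libraries, against 17.3, 26.4 and 22.3 RPKM in the CD44+CD51- libraries, and its log2 change was -1.06 ± 0.24 (SE, adjusted p = 0.00959). Gins1 had 12.4, 23.2 and 21.7 RPKM in the CD51+ libraries, against 28.3, 43.7 and 41.2 RPKM in the CD44+CD51- libraries, with library 1 of each group well below the others. The log2 change of Gins1 was -0.97 ± 0.28 (SE, adjusted p = 0.0219), and the adjusted p was 0.0674 without CD44+CD51- replicate 2 and 0.072 without replicate 3 (range 0.000371 to 0.072). Gins4, the highest of the complex, had 56.7, 61.7 and 70.95 RPKM in the CD51+ libraries, against 88.3, 106 and 96.4 RPKM in the CD44+CD51- libraries, and its groups did not overlap. This came to a log2 change of -0.61 ± 0.15 (SE, adjusted p = 0.0125), or an adjusted p of 0.0518 without CD44+CD51- replicate 2 (range 0.00125 to 0.0518). Gins3 had 7.27, 10.3 and 12.04 RPKM in the CD51+ libraries, against 14.9, 15.8 and 13.1 RPKM in the CD44+CD51- libraries, where CD51+ library 3 stood just under the lowest CD44+CD51- value. For Gins3 the log2 change was -0.55 ± 0.20 (SE, adjusted p = 0.0516), so it did not pass the test, and with the block the adjusted p was 0.0232. Gins3 was called in 5 of the 15 alternatives (adjusted p 0.00526 to 0.138).

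Pold2 (chromosome 11, 5872180 to 5878292, minus strand), the second subunit of the lagging-strand polymerase δ, had the largest log2 change of all 44 genes. It had 103, 59.02 and 62.7 RPKM in the CD51+ libraries, against 312, 152 and 147 RPKM in the CD44+CD51- libraries. Library 1 was the highest in each group, so that CD51+ library 1 came nearest to the CD44+CD51- values without overlapping them. The log2 change was -1.38 ± 0.35 (SE, adjusted p = 0.0143), and the adjusted p was 0.056 without CD51+ replicate 2 and 0.0511 without CD51+ replicate 3 (range 0.000124 to 0.056). Pold1 (chromosome 7, 44532746 to 44548849, minus strand), the catalytic subunit of the same enzyme, had 39.4, 34.8 and 36.3 RPKM in the CD51+ libraries, against 105, 84.6 and 80.4 RPKM in the CD44+CD51- libraries, with small spread and no overlap. That is a log2 change of -1.26 ± 0.15 (SE, adjusted p = 0.000707).

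Polymerase α with primase lays down the first stretch of each new strand. Pola2 (chromosome 19, 5940542 to 5964202, minus strand), its regulatory subunit, had 26.5, 33.01 and 34.7 RPKM in the CD51+ libraries, against 76.3, 79.7 and 78.4 RPKM in the CD44+CD51- libraries, and the 3 CD44+CD51- libraries were almost equal. Pola2 had a log2 change of -1.30 ± 0.15 (SE, adjusted p = 0.000509). The catalytic subunit Pola1 had 4.33, 6.48 and 7.57 RPKM in the CD51+ libraries, against 9.81, 15.2 and 13.1 RPKM in the CD44+CD51- libraries, with a log2 change of -0.95 ± 0.24 (SE, adjusted p = 0.0132). Prim1, the catalytic subunit of primase, had 14.98, 19.96 and 26.1 RPKM in the CD51+ libraries, against 31.9, 44.4 and 39.5 RPKM in the CD44+CD51- libraries, with a log2 change of -0.91 ± 0.23 (SE, adjusted p = 0.0133). In both, library 1 was the lowest of each group and the groups did not overlap. Prim2, the large subunit of primase, had 8.38, 9.97 and 12.7 RPKM in the CD51+ libraries, against 17.7, 21.5 and 19.6 RPKM in the CD44+CD51- libraries, and its log2 change was -0.87 ± 0.18 (SE, adjusted p = 0.00615).

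Polymerase ε copies the leading strand. Pole, its catalytic subunit, had the lowest mean RPKM of the 44 genes in CD51+ cells, with 2.82, 4.66 and 3.78 RPKM in the CD51+ libraries, against 7.44, 11.02 and 10.5 RPKM in the CD44+CD51- libraries. All CD51+ libraries were lower, and the log2 change was -1.16 ± 0.22 (SE, adjusted p = 0.00398). Pole2, the second subunit, had 9.96, 20.8 and 26.4 RPKM in the CD51+ libraries, against 24.5, 42.1 and 38.8 RPKM in the CD44+CD51- libraries. CD51+ library 3 lay above CD44+CD51- library 1, and this was the 1 polymerase gene that did not pass the test. The change was, in log2, -0.91 ± 0.37 (SE, adjusted p = 0.0719), and with the block the adjusted p was 0.00142. Pole2 was called in 5 of the 15 alternatives (adjusted p 0.00142 to 0.178).

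**Figure D2:**
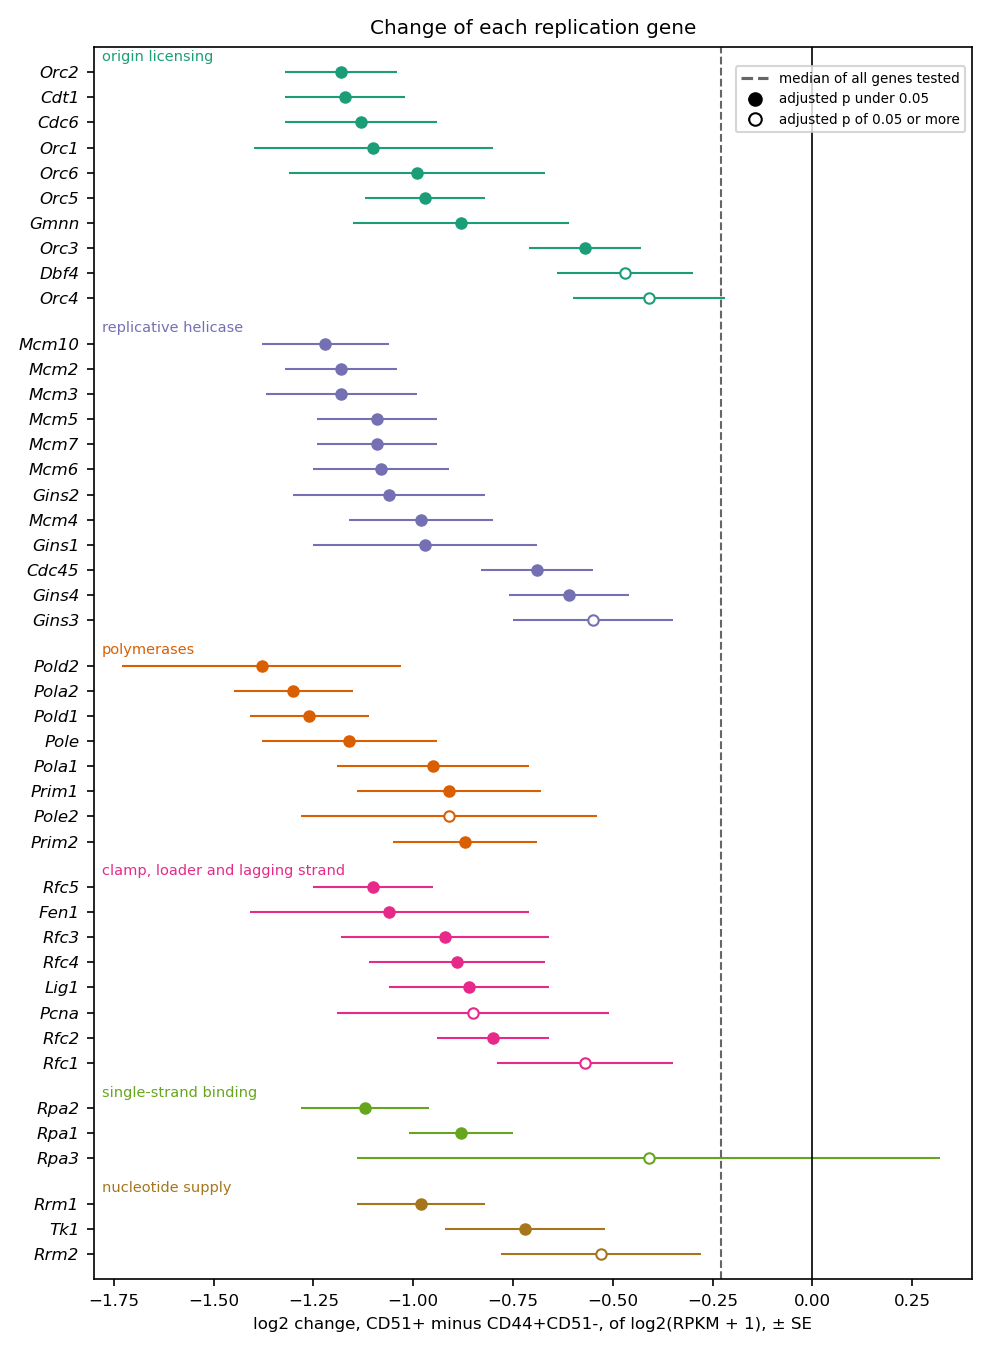
Log2 change of each replication gene (mean log2(RPKM + 1) in CD51+ minus that in CD44+CD51-) with its SE from limma (n = 3 per group). Filled points passed the test and white points did not; all 44 lie to the left of the dashed line, the median of all genes tested at -0.23.

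PCNA is the ring that holds polymerases on DNA and is loaded by the RFC complex. Pcna (chromosome 2, 132249162 to 132253314, minus strand) had 65.6, 108 and 135 RPKM in the CD51+ libraries, against 122, 226 and 205 RPKM in the CD44+CD51- libraries. CD51+ library 3 stood above CD44+CD51- library 1, so the groups overlapped, although CD51+ was the lower of each numbered pair. The log2 change was -0.85 ± 0.34 (SE, adjusted p = 0.0685), which did not pass. With the block the adjusted p was 0.00138, and Pcna was called in 4 of the 15 alternatives (adjusted p 0.00138 to 0.182). A Pcna pseudogene was listed as an entry of its own, at 0.522 to 1.87 RPKM in CD51+ libraries and 1.56 to 2.24 RPKM in CD44+CD51- libraries, so reads could have been split between it and Pcna.

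Of the 5 clamp loader genes 4 fell. Rfc5 (chromosome 5, 117378103 to 117389047, minus strand) had 33.4, 30.9 and 36.8 RPKM in the CD51+ libraries, against 82.99, 71.5 and 66.3 RPKM in the CD44+CD51- libraries, the groups standing clear of each other. Its log2 change was -1.10 ± 0.15 (SE, adjusted p = 0.00105). Rfc3 (chromosome 5, 151642756 to 151651242, minus strand) had 9.35, 16.02 and 15.4 RPKM in the CD51+ libraries, against 19.6, 30.8 and 28.97 RPKM in the CD44+CD51- libraries, with library 1 lowest in each group. The log2 change of Rfc3 was -0.92 ± 0.26 (SE, adjusted p = 0.0208), and the adjusted p was 0.0654 without CD44+CD51- replicate 2 and 0.0707 without replicate 3 (range 0.000392 to 0.0707). Rfc4, the highest of the loader genes, had 53.8, 73.3 and 92.8 RPKM in the CD51+ libraries, against 117, 149 and 136 RPKM in the CD44+CD51- libraries, with a log2 change of -0.89 ± 0.22 (SE, adjusted p = 0.0137). Rfc2 had 27.2, 27.2 and 32.9 RPKM in the CD51+ libraries, against 49.2, 53.3 and 51.9 RPKM in the CD44+CD51- libraries, with a log2 change of -0.80 ± 0.14 (SE, adjusted p = 0.00277). In neither of them did the groups overlap. Rfc1, the large subunit, had 7.46, 11.2 and 12.2 RPKM in the CD51+ libraries, against 12.8, 17.7 and 16.2 RPKM in the CD44+CD51- libraries, and it did not pass the test, with a log2 change of -0.57 ± 0.22 (SE, adjusted p = 0.0616). With the block the adjusted p of Rfc1 was 0.00553, and it was called in 4 of the 15 alternatives (adjusted p 0.00553 to 0.169).

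Fen1 (chromosome 19, 10199132 to 10204169, minus strand), the nuclease that trims the flaps of Okazaki fragments, had 9.14, 5.98 and 5.55 RPKM in the CD51+ libraries, against 26.7, 11.5 and 11.1 RPKM in the CD44+CD51- libraries. Library 1 was the highest of each group, and CD51+ library 1 stood just under the CD44+CD51- values. On the log2 scale it changed by -1.06 ± 0.35 (SE, adjusted p = 0.0394). The call was lost in 5 of the 15 alternatives, with adjusted p-values of 0.0696 with no filter on low values, 0.114 under trimmed-mean scaling, 0.112 and 0.116 without CD51+ replicate 2 or 3 and 0.0531 without CD44+CD51- replicate 1 (range 0.00084 to 0.116). Exons of Fen1 overlap those of Gm10143 on the other strand over 1909 bases, and a library kit that does not keep strand would not tell the pair apart. Lig1, the ligase that seals the fragments, had 30.5, 37.6 and 45.5 RPKM in the CD51+ libraries, against 57.6, 78.9 and 70.8 RPKM in the CD44+CD51- libraries, with a clear gap between groups. For Lig1 the log2 change was -0.86 ± 0.20 (SE, adjusted p = 0.00961).

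RPA is the trimer that covers single-stranded DNA. Rpa1 (chromosome 11, 75298166 to 75348324, minus strand), the large subunit, had 29.1, 29.6 and 32.8 RPKM in the CD51+ libraries, against 59.8, 57.9 and 53.9 RPKM in the CD44+CD51- libraries. Rpa2 (chromosome 4, 132768332 to 132778752, plus strand), the middle one, had 43.9, 46.3 and 58.8 RPKM in the CD51+ libraries, against 111, 111 and 103 RPKM in the CD44+CD51- libraries. In both, the libraries of a group were close together and the groups far apart. Their log2 changes were -0.88 ± 0.13 (SE, adjusted p = 0.00144) for Rpa1 and -1.12 ± 0.16 (SE, adjusted p = 0.00129) for Rpa2. Rpa3 (chromosome 6, 8255936 to 8259173, minus strand), the small subunit, had 20.8, 95.2 and 95.2 RPKM in the CD51+ libraries, against 31.4, 125 and 115 RPKM in the CD44+CD51- libraries. Both libraries numbered 1 were far below the others, and this spread within groups was larger than the difference between them. Rpa3 had a log2 change of -0.41 ± 0.73 (SE, adjusted p = 0.657). Of the 44 genes it alone turned its direction in any of the 15 alternatives, to 0.31 without CD51+ replicate 1 (adjusted p = 0.692). Within numbered pairs Rpa3 was lower in CD51+ each time, and with the block the adjusted p was 0.0201. Rpa3 was called in 2 of the 15 alternatives (adjusted p 0.0201 to 0.955).

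Ribonucleotide reductase, made of a large subunit from Rrm1 and a small one from Rrm2, turns ribonucleotides into deoxyribonucleotides. Rrm1 (chromosome 7, 102441695 to 102469771, plus strand) had 142, 157 and 182 RPKM in the CD51+ libraries, against 316, 324 and 304 RPKM in the CD44+CD51- libraries. The CD44+CD51- libraries were nearly level and the CD51+ libraries all far lower, with a log2 change of -0.98 ± 0.16 (SE, adjusted p = 0.00255). Rrm2 (chromosome 12, 24708241 to 24714146, plus strand), the subunit whose level follows S phase, had the highest mean RPKM of the 44 genes in either group. It had 348, 242 and 270.2 RPKM in the CD51+ libraries, against 531, 398 and 325 RPKM in the CD44+CD51- libraries, and CD51+ library 1 exceeded CD44+CD51- library 3. The log2 change of Rrm2 was -0.53 ± 0.25 (SE, adjusted p = 0.11), which did not pass. With the block the adjusted p was 0.0202, and Rrm2 was called in 3 of the 15 alternatives (adjusted p 0.0178 to 0.39). Tk1 (chromosome 11, 117815526 to 117826092, minus strand), the S phase kinase that salvages thymidine, had 22.1, 27.7 and 33.7 RPKM in the CD51+ libraries, against 38.4, 53.6 and 46.9 RPKM in the CD44+CD51- libraries, without overlap. This came to a log2 change of -0.72 ± 0.20 (SE, adjusted p = 0.0206), and the adjusted p was 0.061 without CD51+ replicate 2, 0.0696 without CD44+CD51- replicate 2 and 0.0649 without CD44+CD51- replicate 3 (range 0.0022 to 0.0696).

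Every one of the 44 genes was lower in CD51+ than in CD44+CD51- within each numbered pair. The median ratio of CD51+ over CD44+CD51- RPKM was 0.444 in pair 1, 0.475 in pair 2 and 0.588 in pair 3. The lowest ratios were 0.287 for Orc1, 0.362 for Gins2 and 0.360 for Pole in pairs 1, 2 and 3, and the highest were 0.662 and 0.764 for Rpa3 and 0.916 for Gins3. With the replicate number as a block all 44 genes were called lower, where 41.3% of all genes tested were. How many of all genes tested were lower in every pair was not counted.

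The libraries numbered 1 stood apart for many of the replication genes as well. Compared with the mean of libraries 2 and 3 of its own group, library 1 was lower in both groups for 27 of the 44 genes and higher in both for 4, Fen1, Pold2, Pold1 and Rrm2; for 13 genes the groups went opposite ways. Across the 44 genes this ratio in CD51+ cells and in CD44+CD51- cells had r = 0.939 on the log2 scale, a description of 6 libraries in which each gene shares the same 2 libraries numbered 1. Rpa3 lay at the low end in both groups, and Fen1 and Pold2 at the high end. Without replicate 1 of both groups 41 of the 44 genes were called lower, where 34.8% of all genes tested were; Orc4, Dbf4 and Gins3 were not. The estimated library size of CD51+ library 1, 12194782 reads, was the lowest of all 6, while that of CD44+CD51- library 1 was 20395993 reads, between the others of its group. The labels name no batch, and what set these libraries apart was not tested.

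**Figure D3:**
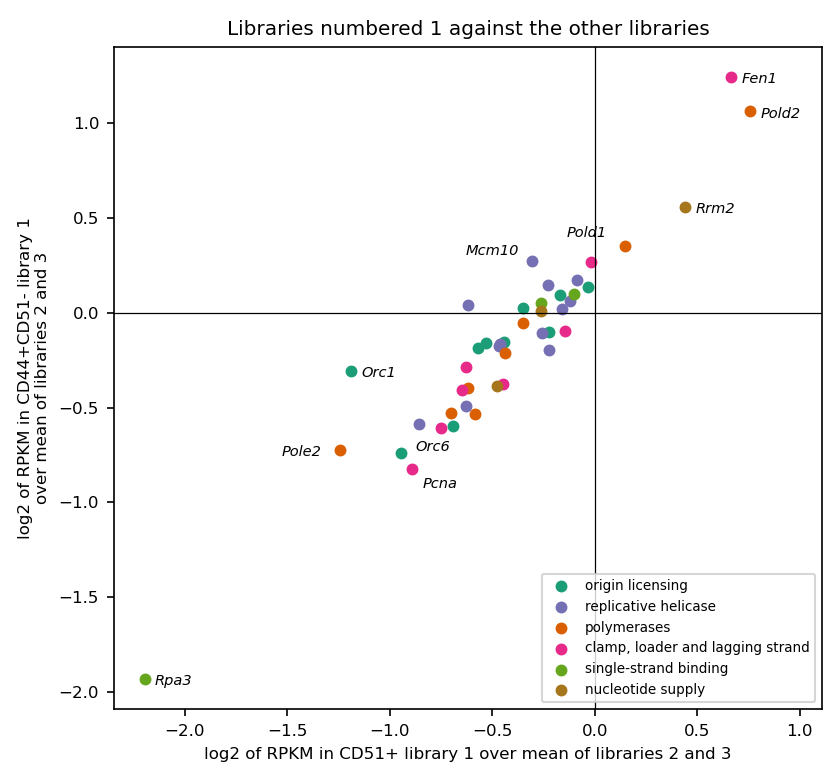
Library 1 over the mean of libraries 2 and 3 (log2 of the RPKM ratio) in CD51+ cells (x axis) and in CD44+CD51- cells (y axis), 1 point per replication gene, coloured by step. Points run along a diagonal from Rpa3 at the lower left to Fen1 and Pold2 at the upper right; 27 are negative in both groups and 4 are positive in both.

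Within complexes, the order of subunit levels was largely shared by the groups. RPKM is a level per length, and the lengths here fit merged exons of GENCODE M21, so an order between genes also depends on that annotation. The clamp loader genes ran Rfc4, Rfc5, Rfc2, Rfc3, Rfc1 from highest to lowest in all 6 libraries. Gins4 was the highest GINS gene and Orc6 the highest origin complex gene in all 6. Orc4 was the lowest of the origin complex in 5 libraries, and Orc1 was lowest in CD51+ library 1. Among the ring genes Mcm6 was highest in CD51+ library 3 and Mcm5 in the other 5, while Mcm2 was lowest in 5 and Mcm4 in CD44+CD51- library 1. The highest ring gene was 2.28, 2.38 and 2.36 times the lowest in CD51+ libraries, against 2.14, 2.22 and 2.18 times in CD44+CD51- libraries. For the RPA genes the order went with the library number, since Rpa3 was lowest in both libraries numbered 1 and highest in the other 4.

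Ratios between partner genes gave no separation. Gmnn over Cdt1 was 0.867, 1.19 and 1.29 in CD51+ libraries, against 0.652, 1.07 and 1.03 in CD44+CD51- libraries. Rrm2 over Rrm1 was 2.46, 1.54 and 1.49 in CD51+ libraries, against 1.68, 1.23 and 1.07 in CD44+CD51- libraries. Orc1 over Orc2 was 0.259, 0.443 and 0.486 in CD51+ libraries, against 0.325, 0.418 and 0.4003 in CD44+CD51- libraries. In each of these ratios the groups overlapped, although CD51+ was the higher of each numbered pair for Gmnn over Cdt1 and for Rrm2 over Rrm1.

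Genes that work beside the 44 also tended to be lower in CD51+ cells. Their counts stand beside 29.7% of all genes tested called lower and 24.1% called higher. Of 29 other fork and initiation factors, 19 fell, with a median log2 change of -0.81. Of the 29 changes 28 were negative, where 7148 of 11741 were over all genes tested. With the block 26 fell and 1 rose, where 41.3% of all genes tested fell and 27.8% rose. Timeless, which steadies the fork together with Tipin, averaged 14.3 ± 2.09 RPKM in CD51+ cells and 37.2 ± 1.32 RPKM in CD44+CD51- cells (SD, n = 3 each), a log2 change of -1.33 ± 0.15 (SE, adjusted p = 0.000475). Recql4, a helicase needed to start replication, had a log2 change of -1.30 ± 0.14 (SE, adjusted p = 0.000381). Exo1, a nuclease of repair and of stalled forks, had one of -1.26 ± 0.16 (SE, adjusted p = 0.000885). Pold4, the smallest subunit of polymerase δ, went the other way, at 25.2 ± 3.11 RPKM in CD51+ cells and 16.3 ± 5.19 RPKM in CD44+CD51- cells. Its log2 change was 0.64 ± 0.24 (SE, adjusted p = 0.0559), so it did not pass, and with the block the adjusted p was 0.00625. Pclaf, entered as 2810417H13Rik, was level between groups, with a log2 change of -0.01 ± 0.30 (SE, adjusted p = 0.987). Top1 and Top2a did not pass either, at -0.37 ± 0.22 (SE, adjusted p = 0.199) and -0.32 ± 0.21 (SE, adjusted p = 0.24).

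Of 15 genes of replication-coupled chromatin 13 fell, with a median log2 change of -0.91. Both large subunits of the chromatin assembly factor CAF-1 were among them, Chaf1a at -1.24 ± 0.21 (SE, adjusted p = 0.00266) and Chaf1b at -1.17 ± 0.13 (SE, adjusted p = 0.000433), as was Uhrf1, which brings the maintenance DNA methyltransferase to new DNA, at -1.13 ± 0.14 (SE, adjusted p = 0.000798). Without CD44+CD51- replicate 2 the count was 7, and without CD44+CD51- replicate 3 it was 6. Of 10 replication checkpoint genes tested, from 11 listed, 8 fell with a median of -0.73 over the tested; 5 fell without CD51+ replicate 1, CD44+CD51- replicate 2 or CD44+CD51- replicate 3. Chek1, the kinase of stalled forks, had a log2 change of -0.91 ± 0.31 (SE, adjusted p = 0.0431), with overlapping groups and a call held in 9 of the 15 alternatives (adjusted p 0.000875 to 0.126). Wee1, the kinase that holds Cdk1 in check, had one of -0.82 ± 0.20 (SE, adjusted p = 0.0114), and Rad18, which marks PCNA with ubiquitin at damaged forks, one of -0.80 ± 0.17 (SE, adjusted p = 0.00655).

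The other nucleotide enzymes were mixed, with 10 of 18 lower, 1 higher and a median log2 change of -0.61. Dctd, which deaminates dCMP on the way to thymidylate, had 5.22, 4.86 and 5.80 RPKM in the CD51+ libraries, against 24.6, 14.8 and 15.5 RPKM in the CD44+CD51- libraries, without overlap. That is a log2 change of -1.58 ± 0.21 (SE, adjusted p = 0.00112). Dut, which removes dUTP, had a log2 change of -1.19 ± 0.23 (SE, adjusted p = 0.00521). Samhd1, which breaks down dNTPs and so acts against ribonucleotide reductase, rose, with 14.1, 16.2 and 12.5 RPKM in the CD51+ libraries, against 4.85, 5.59 and 4.52 RPKM in the CD44+CD51- libraries. All 3 CD51+ libraries were above all CD44+CD51- libraries, and the log2 change was 1.35 ± 0.16 (SE, adjusted p = 0.000576).

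Of 23 genes of G1/S control 10 fell and 3 rose. Ccne1, the cyclin E that partners Cdk2 at S phase entry, had 36.4, 49.3 and 55.3 RPKM in the CD51+ libraries, against 110.0, 123 and 115 RPKM in the CD44+CD51- libraries, with the groups well apart. The change was, in log2, -1.31 ± 0.18 (SE, adjusted p = 0.00131). E2f4, an E2F factor best known as a repressor, had a log2 change of -1.29 ± 0.20 (SE, adjusted p = 0.00218). E2f1, the classical activator, had a log2 change of -0.93 ± 0.23 (SE, adjusted p = 0.0141), a call held in 13 of the 15 alternatives (adjusted p 0.000763 to 0.0636). E2f6 fell too, by -1.28 ± 0.16 (SE, adjusted p = 0.000889). E2f2, E2f3, E2f7 and E2f8 did not pass the test. Their log2 changes were 0.26 ± 0.26 (SE, adjusted p = 0.428), -0.76 ± 0.31 (adjusted p = 0.0752), 0.04 ± 0.21 (adjusted p = 0.891) and -0.68 ± 0.36 (adjusted p = 0.152). Cdkn1a, which encodes the Cdk inhibitor p21, had 57.3, 72.3 and 62.96 RPKM in the CD51+ libraries, against 2.20, 5.98 and 2.84 RPKM in the CD44+CD51- libraries, higher in every CD51+ library. For Cdkn1a the log2 change was 3.88 ± 0.29 (SE, adjusted p = 7.6e-05). Cdkn1c, which encodes the inhibitor p57, had 8.81, 21.2 and 12.6 RPKM in the CD51+ libraries, against 0.0959, 1.11 and 0.279 RPKM in the CD44+CD51- libraries, and its log2 change was 3.32 ± 0.36 (SE, adjusted p = 0.000437). E2f5 rose as well, with a log2 change of 0.51 ± 0.16 (SE, adjusted p = 0.029), and was called in 8 of the 15 alternatives. Counts of this list were 15 lower and 4 higher with the block, and 5 lower under trimmed-mean scaling or without CD51+ replicate 2. Without CD44+CD51- replicate 2, 6 were lower, and at a common summed RPKM 16 were. Of the 11741 genes tested, 4854 were lower and 3265 higher with the block, and 2340 were lower under trimmed-mean scaling. Without CD51+ replicate 2 the all-gene count of lower calls was 2576.

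**Figure D4:**
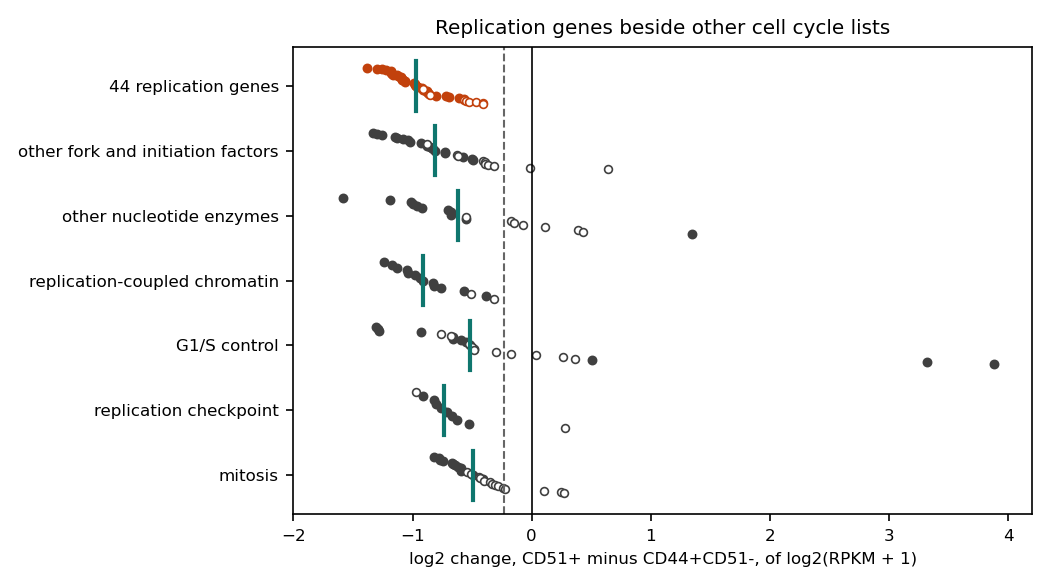
Log2 change, CD51+ minus CD44+CD51-, of each tested gene of the 44 replication genes and of 6 other cell cycle lists; filled points passed the test and white points did not. Green bars are list medians, -0.97 for the replication genes and -0.49 for mitosis, the dashed line is the median of all genes tested at -0.23, and the points far to the right are Cdkn1a and Cdkn1c.

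Mitosis genes had a smaller median log2 change, at -0.49. Of 27 genes 13 fell, or 48.1%, where 29.7% of all genes tested did. Of the 27 changes 24 were negative, where 7148 of 11741 were over all genes tested. Cenpa, the histone variant of centromeres, had a log2 change of -0.82 ± 0.22 (SE, adjusted p = 0.0167), a call held in 13 of the 15 alternatives (adjusted p 0.00143 to 0.0577). Mki67, the gene of the proliferation antigen Ki-67, had one of -0.78 ± 0.26 (SE, adjusted p = 0.0379), with overlapping groups and a call held in 9 of the 15 (adjusted p 0.00266 to 0.111). Bub1b, a spindle checkpoint gene, had one of -0.77 ± 0.19 (SE, adjusted p = 0.0138), held in 14 of the 15 (adjusted p 0.00133 to 0.0508). The mitosis counts depended on scaling. Under trimmed-mean scaling 4 fell and 2 rose, where 2340 of the 11741 genes tested fell and 3240 rose. At a common summed RPKM 21 fell, where 5471 of all genes tested did. The mitosis counts depended on single libraries too. Lower genes numbered 7, 4, 4 and 5 without CD51+ replicate 1, CD51+ replicate 2, CD44+CD51- replicate 2 and CD44+CD51- replicate 3. In these settings 3122, 2576, 2567 and 2551 of all genes tested were lower. In CD51+ libraries the summed RPKM of the 44 replication genes was 1.89, 1.83 and 1.70 times that of the mitosis genes. In CD44+CD51- libraries it was 2.76, 2.43 and 2.56 times. This ratio within a library does not depend on library scaling, and it was lower in all 3 CD51+ libraries. With 3 libraries against 3, an exact permutation test could not give a two-sided p under 0.1.

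The summed RPKM of the 44 genes was 1960, 2146 and 2486 in CD51+ libraries, against 4260, 4453 and 4082 in CD44+CD51- libraries. As a share of all RPKM it was 0.332%, 0.352% and 0.404% in CD51+ libraries, against 0.876%, 0.863% and 0.900% in CD44+CD51- libraries. Both measures parted the groups without overlap. The log2 change of the median gene shifted with scaling, by 0.19 under trimmed means, by -0.13 under quantile normalization and by -0.27 at a common summed RPKM. The median of the 44 genes was then -0.75, -0.84 and -1.27. It lay below that of all genes by 0.71, 0.47 and 0.78 in these settings, and by 0.74 in the values as deposited, and no replication gene turned its sign under any of the 3.

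Erythroid and early B markers mostly moved with the replication genes, while stromal and bone, neutrophil lineage, and monocyte and macrophage markers moved the other way. Of 12 erythroid genes 10 fell and 1, Alas2, rose; their summed RPKM ranged from 1901 to 3244 in CD51+ libraries and from 7045 to 7456 in CD44+CD51- libraries. Of 8 early B genes tested 7 fell, with sums of 64.3 to 119 in CD51+ libraries and 255 to 756 in CD44+CD51- libraries. All 11 stromal and bone genes rose, with sums of 25459 to 34117 in CD51+ libraries and 25.4 to 129 in CD44+CD51- libraries. All 10 neutrophil lineage genes rose, with sums of 85200 to 88301 in CD51+ libraries and 5853 to 28656 in CD44+CD51- libraries, as did 9 of 10 monocyte and macrophage genes. Among these lists the defining marker Kitl was at 0 in CD44+CD51- library 3, and no other marker of the 4 lists given with sums was at 0 in any library. Summed RPKM of the 6 megakaryocyte genes overlapped between groups, at 119 to 2368 in CD51+ libraries and 235 to 1003 in CD44+CD51- libraries. The 6 endothelial genes overlapped too, at 16.3 to 29.1 in CD51+ libraries and 23.6 to 43.4 in CD44+CD51- libraries, with Cdh5 at 0 in CD44+CD51- libraries 1 and 3. Over erythroid transcripts of the same library, the 44 genes were 1.03, 0.737 and 0.766 times in CD51+ libraries, against 0.587, 0.597 and 0.580 times in CD44+CD51- libraries. That ratio was higher in every CD51+ library, so the summed erythroid markers were lower by more than the replication genes. The part of cell makeup in the replication result was not tested.

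**Figure D5:**
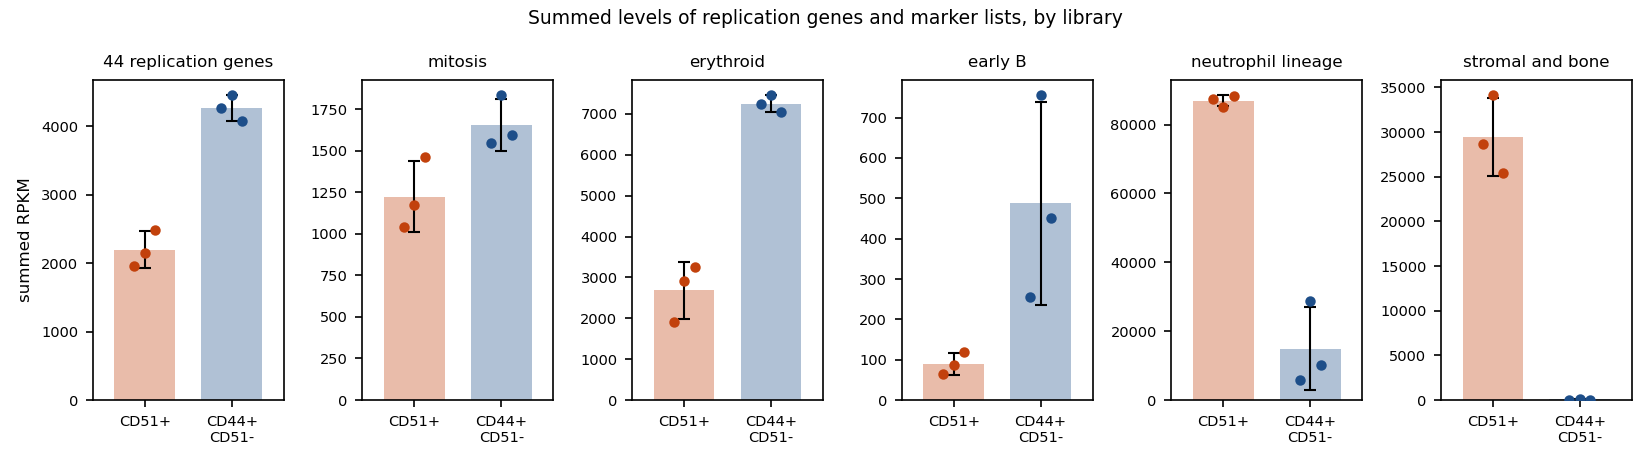
Summed RPKM of the 44 replication genes, the mitosis genes and 4 marker lists in each library; bars are means, error bars are SD (n = 3 per group) and points are libraries, each panel with its own axis from 0. Replication, mitosis, erythroid and early B sums are lower in all 3 CD51+ libraries, and neutrophil and stromal sums are higher in all 3.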

How the data were processed

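RNA was measured in 6 libraries. The deposited values are RPKM per gene, computed by the authors; the submitters' processing notes name edgeR 3.16.5 and the build GRCm38. The kits were RNeasy Plus Micro for RNA and Nextera XT for libraries, per the labels' protocols. The aligner, the read counter, the annotation and any further library size adjustment are not given in the sources used here. Groups were taken from the labels. Genes reaching RPKM 1 in 3 or more samples (11741, all 44 replication genes among them) were tested on log2(RPKM + 1), which understates changes of low genes, by a two-sided limma test (limma 3.58.1, R 4.3.3) with its intensity trend, Benjamini-Hochberg adjusted, threshold 0.05. The test was checked on simulated data with independent libraries. These lack the deviation shared by the libraries numbered 1, so the check does not speak to it. Alternatives changed the pseudocount (0.1), the filter (none, or RPKM of at least 5), the scaling, the trend and the replicate block, or left out libraries. The estimated library sizes use GENCODE M21 exon lengths; with them 89.0 to 91.1% of low values (20 reads or fewer) were whole reads to within 0.05, where chance gives 10%.

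Gene coordinates are those of GENCODE M21 on GRCm38. Exons of 14 of the 44 genes overlap an exon of a gene on the other strand, such as Gins2 with Gse1 over 2758 bases and Orc2 with Nif3l1 over 1150 bases.

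The pairing by number was checked by correlating, over the 11741 genes, deviations from the group means of same-numbered samples. The 3 correlations were 0.619, 0.286 and 0.516, above the preset 0.1, so the block value is given where it changes a call. Differently numbered samples also exceeded 0.1, CD51+ 2 with CD44+CD51- 3 at 0.324 and CD51+ 3 with CD44+CD51- 2 at 0.198. The check thus sets the libraries numbered 1 apart and does not single out the pairing of 2 and 3, which rests on the numbers in the labels.

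The genes, lists and tests were chosen with earlier results of these data known. Values are given for the 3 genes of each step with the largest absolute log2 change and for Orc1, Orc2, Mcm2, Pcna, Gmnn, Cdt1, Rrm1 and Rrm2, with the other genes of the 44 added so that each is accounted for. Of other lists, up to 3 called genes of largest change, and any called against the majority, were named. Pold4, Pclaf, Top1, Top2a, E2f1, E2f2, E2f3, E2f4, E2f6, E2f7 and E2f8 were added for their roles after their values were seen. The settings added after seeing the data were leaving out replicate 1 of both groups and scaling to a common summed RPKM.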

Additional observations from a re-analysis of the deposited data

How the results depend on the processing

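Of the 44 replication genes 36 were called lower. The count was 36 with a pseudocount of 0.1, 33 with no filter, 38 with RPKM of at least 5, 32 under trimmed-mean scaling, 37 under quantile normalization, 37 without the trend, 29 to 38 with 1 library left out, 41 without replicate 1 of both groups and 43 at a common summed RPKM. With the replicate block it was 44, the 8 uncalled genes passing and no called gene losing its call, though the check of pairing did not single out the numbers 2 and 3. Of all genes tested, 3420 of 11741 were lower with a pseudocount of 0.1. With no filter 3325 of 21652 were lower, and with RPKM of at least 5 it was 2968 of 7938. Under trimmed means 2340 of 11741 were lower, under quantile normalization 4567, without the trend 3505 and with the block 4854. With 1 library left out 2551 to 3177 were lower, and without replicate 1 of both groups 4085. In all 15 alternatives 26 of the 36 replication genes stayed called, and 10 lost the call in at least 1. The 1 change of sign was that of Rpa3, to 0.31 without CD51+ replicate 1, where leaving out any 1 library gave -1.04 to 0.31; the cause was not tested. Over all genes tested, 3484 were lower and 2825 higher; 5471 were lower at a common summed RPKM, and 1613 were higher with RPKM of at least 5, where fewer genes are tested. Higher calls were 44.8% of all calls, 58.1% under trimmed means, 34.6% under quantile normalization and 30.9% at a common summed RPKM. The lowest value of a replication gene stands for about 185 reads, and 3 libraries a group limit the precision.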
